A study of Mus musculus with 8 samples.

Results

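The genes described here are Tnf, the cytokine tumor necrosis factor, and 8 genes around it: the related ligand Tnfsf9, the receptors Tnfrsf1a, Tnfrsf1b and Fas, the adaptor proteins Traf1 and Traf2, the kinase Ripk1, and the death inhibitor Cflar. They were chosen by name as a set of 9 genes, with earlier results of these data known. Every probe set that the array annotation assigns to 1 of these symbols alone was read. That gave 14 probe sets for 8 of the 9 genes, out of 18193 genes with such a probe set, and Ripk1 was not analysed here. All 8 measured genes were among the 8908 genes that passed a filter on low signal.

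The cells were RAW 264.7, a macrophage line derived from a mouse tumor induced by the Abelson leukemia virus, so all values come from a single transformed line. RNA from the cells was hybridised to 8 Affymetrix arrays in 4 groups of 2, which were control, menthol alone (M), lipopolysaccharide (LPS, a component of the outer membrane of Gram-negative bacteria), and LPS given after menthol (LPS+M). Menthol or the control treatment lasted 1 h, and LPS at 100 ng/ml was then present for 6 h. The labels state neither the dose of menthol nor when control and M cultures were harvested, so time and LPS cannot be told apart where a group with LPS is set against a group without it. The comparisons address whether menthol given beforehand alters what LPS does to macrophage gene expression. The 2 arrays of a group are labelled as biological replicates with no word on separate cultures, and the p-values therefore cover only how far these arrays vary, which may be technical variation.

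TNF is made by macrophages as a membrane protein and is released by the protease ADAM17. It acts on TNF receptor 1, encoded by Tnfrsf1a, which has a death domain and is present on most cells, and on TNF receptor 2, encoded by Tnfrsf1b, which lacks that domain and binds TRAF2 directly. At receptor 1 the proteins TRADD, RIPK1, TRAF2 and the cIAP ubiquitin ligases form complex I, which activates NF-κB; when that step fails, RIPK1, FADD and caspase-8 can start cell death. The protein c-FLIP, encoded by Cflar, holds caspase-8 in check, at receptor 1 and also at Fas, the receptor for Fas ligand.

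Where these genes start is shown for 3 of the 4 whose group means spread by more than 1 log2 unit, because the results turn on them. Each line gives the 250 bases before a start annotated by RefSeq (GRCm38.p6), read 5′ to 3′ along the gene. For Fas that start lies just inside the gene's outer bounds. A window was held for 8 of the 9 genes, all but Tnfsf9. The window of Tnf is chr17:35202008-35202257 on the minus strand, that of Fas is chr19:34290409-34290658 on the plus strand, and that of Tnfrsf1b is chr4:145246871-145247120 on the minus strand. Capitals mark a match to 1 of 3 motifs searched on both strands: the NF-κB consensus, TGANTCA (the site bound by AP-1) and TATAAA, a core promoter element.
Tnf: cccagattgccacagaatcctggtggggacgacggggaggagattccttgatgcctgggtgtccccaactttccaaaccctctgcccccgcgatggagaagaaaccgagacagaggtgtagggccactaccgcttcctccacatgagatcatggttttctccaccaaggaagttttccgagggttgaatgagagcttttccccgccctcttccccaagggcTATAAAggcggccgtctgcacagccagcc
Fas: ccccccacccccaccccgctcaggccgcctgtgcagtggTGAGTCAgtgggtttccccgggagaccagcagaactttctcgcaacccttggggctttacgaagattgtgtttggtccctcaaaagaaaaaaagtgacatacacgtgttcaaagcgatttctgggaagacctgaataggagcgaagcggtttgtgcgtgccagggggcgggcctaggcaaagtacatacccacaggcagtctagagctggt
Tnfrsf1b: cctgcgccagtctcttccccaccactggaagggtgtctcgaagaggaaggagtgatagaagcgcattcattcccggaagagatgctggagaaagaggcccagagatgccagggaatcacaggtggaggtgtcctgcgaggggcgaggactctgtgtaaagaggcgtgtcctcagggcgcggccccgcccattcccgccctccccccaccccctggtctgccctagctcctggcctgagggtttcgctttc
The capitals in the Tnf window are TATAAA, 29 to 24 bases before the start, and those in the Fas window are TGANTCA, 211 to 205 bases before it. Over 32851 mouse promoter windows of the same length, TATAAA was found in 12.4%, TGANTCA in 6.75% and the NF-κB consensus in 7.25%. Cflar also held TATAAA, at positions that overlap on the 2 strands, and no window of a gene in the set held the NF-κB consensus in the form searched. The CG dinucleotide occurred 10 times in the Tnf window, 11 times in the Fas window and 12 times in the Tnfrsf1b window, where the median of all windows was 6. Of all windows, 62.2%, 64.4% and 66.5% held fewer than these in turn, so the counts are only moderately above the middle. Traf1, the gene of the 4 whose window is not shown, had 4, with 37.8% of windows holding fewer. A match describes letters in this window and nothing about binding.

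The array medians ran from 2.99 to 3.04 on the log2 scale, and the correlation across probe sets between the 2 arrays of a group was 0.999 in each group. All 7 macrophage markers were above the filter, at 9.62 to 15.6, while the 11 markers measured for T cells, B cells, fibroblasts and epithelium lay between 1.68 and 4.04 and none passed it. In what follows a level is a log2 GC-RMA signal, given for the 2 arrays of a group in turn. Differences are log2 fold changes ± standard error from a limma fit of all 8 arrays. A gene is said to have risen or fallen, or is called, only at a Benjamini-Hochberg adjusted p under 0.05 over all 8908 genes together with a change of at least 1.5-fold. Levels of different genes are not set against each other, since each probe set binds with its own strength.

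**Figure D1:**
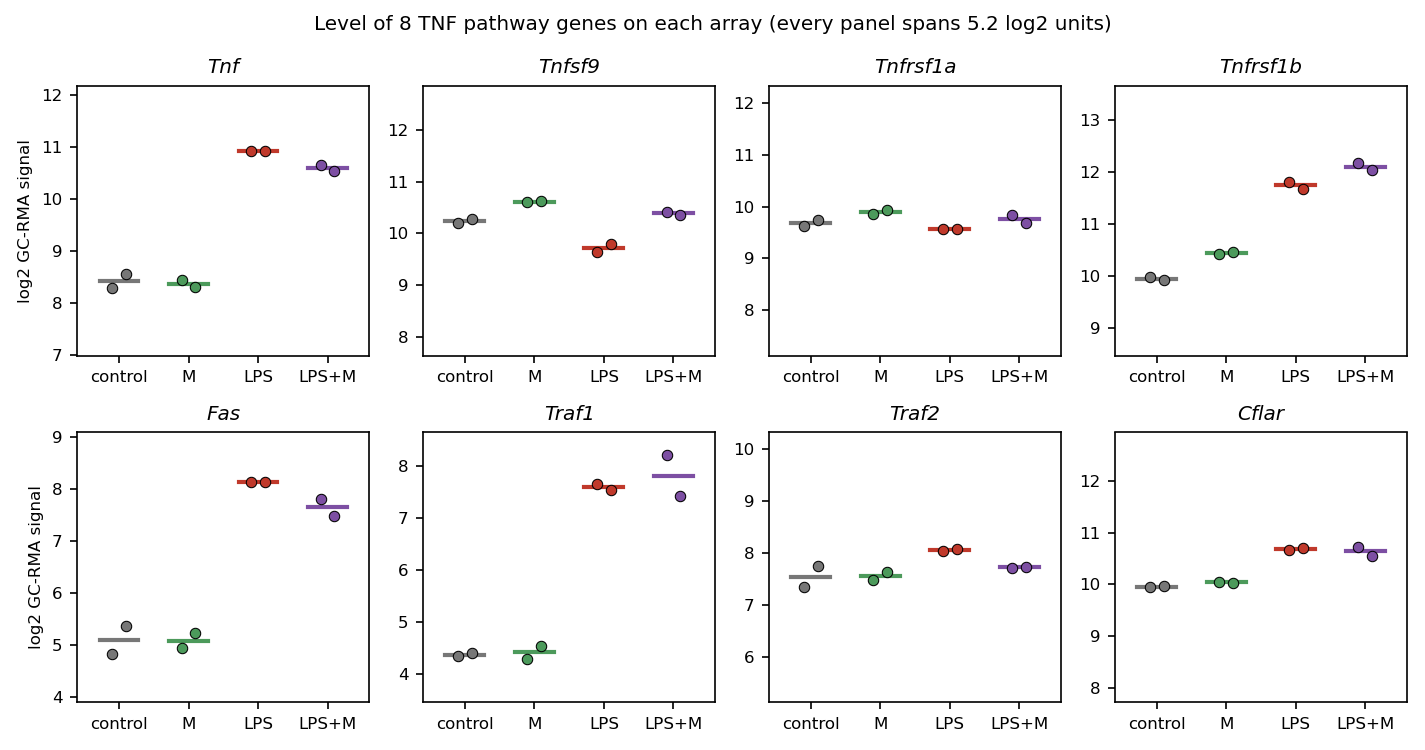
Log2 GC-RMA signal of the main probe set of each of the 8 measured genes on the 8 arrays; each point is an array, each bar is the mean of the 2 arrays of a group, and each panel spans 5.2 log2 units. Tnf, Tnfrsf1b, Fas, Traf1 and Cflar sit higher on all 4 arrays with LPS than on the 4 arrays without it, while Tnfsf9 is lowest on the 2 LPS arrays.

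Among the ligands, Tnf (gene 21926, probe set 1419607_at; chr17:35199367-35202007) was higher on every array with LPS than on any array without it. Its level was 8.29 and 8.55 in control, 8.43 and 8.31 in M, 10.93 and 10.92 in LPS, and 10.65 and 10.54 in LPS+M. The control and M arrays overlapped, and both LPS arrays lay above both LPS+M arrays. Tnf rose 5.67-fold in LPS compared to control (log2 2.50 ± 0.10, limma adjusted p = 3.61e-06). It rose 4.67-fold in LPS+M compared to M (log2 2.22 ± 0.10, limma adjusted p = 8.7e-06). With menthol before LPS, Tnf was 1.26-fold lower than with LPS alone (log2 -0.33 ± 0.10, 95% interval -0.55 to -0.10, limma adjusted p = 0.038), which is under the fold minimum and is not a call. That adjusted p was under 0.05 in 7 of 19 alternative analyses and ran from 0.0191 to 0.444 over them. Menthol alone gave -0.05 ± 0.10 (95% interval -0.27 to 0.17, limma adjusted p = 0.758). The RNA came from whole cultures, so fewer cells that make a transcript and less of it in each cell cannot be told apart.

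Tnfsf9 (gene 21950, probe set 1422924_at; chr17:57105287-57107758) encodes 4-1BB ligand, a membrane protein that costimulates T cells. It read 10.20 and 10.28 in control, 10.60 and 10.63 in M, 9.65 and 9.80 in LPS, and 10.42 and 10.36 in LPS+M. No 2 groups overlapped, and the order from the top was M, LPS+M, control and LPS. It was the only one of the 8 genes that rose when menthol preceded LPS, by 1.59-fold over LPS alone (log2 0.67 ± 0.07, limma adjusted p = 0.000669). In LPS compared to control the difference was -0.52 ± 0.07 (limma adjusted p = 0.002), short of the fold minimum, and in LPS compared to M it fell by 0.89 ± 0.07 on the log2 scale (limma adjusted p = 8.18e-05). The M arrays were 0.37 ± 0.07 above control (95% interval 0.21 to 0.54, limma adjusted p = 0.00966), also short of it. The neighbours LPS+M and control differed by 0.15 ± 0.07 (limma adjusted p = 0.148), and M and LPS+M by 0.22 ± 0.07 (limma adjusted p = 0.0788), so neither pair passed the test.

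Of the receptors, Tnfrsf1a (gene 21937, probe set 1417291_at; chr6:125349723-125362483) read 9.62 and 9.74 in control, 9.86 and 9.93 in M, 9.56 and 9.56 in LPS, and 9.84 and 9.68 in LPS+M. The LPS arrays were the lowest and the M arrays the highest, and the LPS+M arrays overlapped those of control. The 4 group means spanned 0.33, the narrowest range in the set, and Tnfrsf1a was called in no comparison. Its difference in LPS compared to control was -0.12 ± 0.08 (95% interval -0.30 to 0.06, limma adjusted p = 0.309). Between LPS+M and LPS it was 0.20 ± 0.08 (limma adjusted p = 0.086). The widest difference, in LPS compared to M, was -0.33 ± 0.08 (limma adjusted p = 0.0109), under the fold minimum.

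Tnfrsf1b (gene 21938, probe set 1418099_at; chr4:145212368-145246870) read 9.98 and 9.91 in control, 10.42 and 10.45 in M, 11.81 and 11.67 in LPS, and 12.16 and 12.03 in LPS+M. The 4 groups formed 4 separate steps in that order, with no overlap. It rose 3.47-fold in LPS compared to control (log2 1.79 ± 0.08, limma adjusted p = 5.18e-06) and 4.44-fold in LPS+M compared to control (log2 2.15 ± 0.08, limma adjusted p = 2.48e-06). The steps that menthol made were smaller: 0.49 ± 0.08 in M compared to control (95% interval 0.31 to 0.66, limma adjusted p = 0.00434) without LPS, and 0.36 ± 0.08 (limma adjusted p = 0.0109) between LPS+M and LPS. Both were under the fold minimum. Of 19 alternative analyses, 17 kept the adjusted p of the former under 0.05 and 15 that of the latter.

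Fas (gene 14102, probe set 1460251_at; chr19:34290647-34327775) read 4.83 and 5.37 in control, 4.94 and 5.22 in M, 8.13 and 8.14 in LPS, and 7.81 and 7.48 in LPS+M. The control and M arrays overlapped, close to the filter of 4.84, and the 4 arrays with LPS lay well above them. It rose 8.22-fold in LPS compared to control (log2 3.04 ± 0.18, limma adjusted p = 3.47e-05) and 5.92-fold in LPS+M compared to M (log2 2.57 ± 0.18, limma adjusted p = 0.000116). The rise in LPS compared to control did not pass the test named in the study's methods at an unadjusted p under 0.05. Both LPS+M arrays lay below both LPS arrays, by 0.49 ± 0.18 between the means. The 95% interval of that difference was -0.92 to -0.06 and its limma adjusted p was 0.0843, so it did not pass the test.

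Among the adaptors, Traf1 (gene 22029, probe set 1423602_at; chr2:34941750-34961812), a family member without the RING domain that is itself a known NF-κB target, read 4.34 and 4.39 in control, 4.29 and 4.52 in M, 7.64 and 7.54 in LPS, and 8.20 and 7.42 in LPS+M. Its 4 arrays without LPS lay below the filter, which it passed through the other 4. It rose 9.39-fold in LPS compared to control (log2 3.23 ± 0.22, limma adjusted p = 5.12e-05) and 10.6-fold in LPS+M compared to M (log2 3.41 ± 0.22, limma adjusted p = 5.95e-05). The LPS+M arrays were the highest and the lowest of the 4 with LPS, and the difference between these groups was 0.22 ± 0.22 (95% interval -0.28 to 0.72, limma adjusted p = 0.486). Without the lower LPS+M array, replicate 2, that difference was 0.61 and Traf1 was called.

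Traf2 (gene 22030, probe set 1451233_at; chr2:25517982-25546940), the adaptor that brings the cIAP ligases to both TNF receptors, read 7.34 and 7.74 in control, 7.48 and 7.64 in M, 8.04 and 8.07 in LPS, and 7.71 and 7.73 in LPS+M. The LPS arrays were the highest, and the M arrays lay between the 2 control arrays. The difference in LPS compared to control was 0.51 ± 0.12 (limma adjusted p = 0.0213), short of the fold minimum. Without control replicate 2 it was 0.71 and passed. Between LPS+M and LPS it was -0.34 ± 0.12 (limma adjusted p = 0.0753), and LPS+M compared to M gave 0.16 ± 0.12 (limma adjusted p = 0.445).

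The inhibitor Cflar (gene 12633, probe set 1424996_at; chr1:58711311-58758884) read 9.95 and 9.96 in control, 10.05 and 10.03 in M, 10.66 and 10.70 in LPS, and 10.72 and 10.55 in LPS+M. Its 4 arrays with LPS lay above the other 4, and the LPS+M arrays enclosed the LPS arrays. It rose 1.65-fold in LPS compared to control (log2 0.73 ± 0.07, limma adjusted p = 0.000393) and 1.51-fold in LPS+M compared to M (log2 0.60 ± 0.07, limma adjusted p = 0.00142). The latter lies just above the fold minimum and was 0.51, under it, without LPS+M replicate 1. With the arrays shifted to the same median it was 0.583, also under it, and it was called in 16 of 22 alternative analyses. LPS+M and LPS differed by -0.04 ± 0.07 (95% interval -0.21 to 0.12, limma adjusted p = 0.687).

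**Figure D2:**
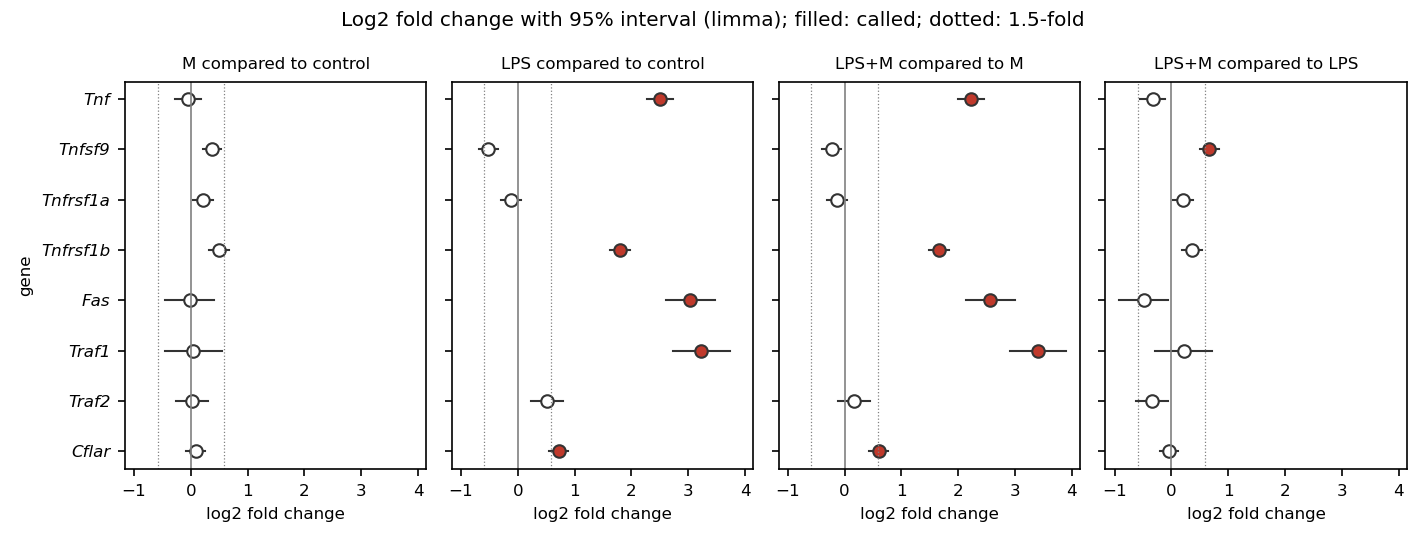
Log2 fold change (horizontal axis) of the 8 genes in 4 comparisons, with the 95% interval from limma as a line; filled points are called and dotted lines mark a change of 1.5-fold. The same 5 genes are filled in LPS compared to control and in LPS+M compared to M, and Tnfsf9 alone is filled in LPS+M compared to LPS.

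Counted over the 8 measured genes, LPS compared to control gave 5 that rose (Tnf, Tnfrsf1b, Fas, Traf1, Cflar), 0 that fell and 3 not called. Over all 8908 genes, 3.17% rose and 2.96% fell in that comparison. The median log2 fold change of the 8 genes was 1.26, beside -0.03 over all genes. The count includes Traf1, which passed the filter only through its arrays with LPS. The set was chosen with earlier results of these data known, so its counts and medians describe it and are no test of it. The same 5 genes rose in LPS+M compared to M, where 2.39% of all genes rose and 1.77% fell, with a median of 1.13 beside -0.03. They rose as well in LPS+M compared to control, where 5.53% rose and 4.3% fell, with a median of 1.42 beside 0.00. In LPS compared to M these 5 rose and Tnfsf9 fell, where 4.59% of all genes rose and 6.7% fell, with a median of 0.97 beside -0.06. These 4 comparisons share arrays and are not independent of each other.

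Menthol moved 1 of the genes past the threshold. In M compared to control, 0 of 8 were called by limma, where 3.01% of all genes rose and 1.54% fell. At an unadjusted p under 0.05 limma gave 3 genes (Tnfsf9, Tnfrsf1a and Tnfrsf1b), all higher in M, beside 34.8% of all genes. After adjustment Tnfsf9 and Tnfrsf1b remained under 0.05, which is 2 of 8 beside 21.7% of all genes, so both counts are near the background. A Welch test on the same values gave Tnfsf9, Tnfrsf1b and Cflar at an unadjusted p under 0.05, beside 15.5% of all genes, and 0 of them with the fold minimum. The median was 0.06 beside 0.02 over all genes. In LPS+M compared to LPS, 1 rose (Tnfsf9) and 0 fell, where 4.22% of all genes rose and 2.49% fell, and the median was 0.08 beside 0.03. The arrays of the groups did not overlap for Tnfsf9, Tnfrsf1a and Tnfrsf1b, higher in LPS+M, or for Tnf, Fas and Traf2, lower there; of all 8908 genes, 63% did not overlap in this comparison, so 6 of 8 is near that share.

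Whether menthol changed the response to LPS itself was tested by the interaction, which is the difference in LPS+M compared to LPS minus that in M compared to control. It called 0 of the 8 genes, and over all genes 0.0337% had a positive and 0.202% a negative interaction. Limma gave 1 gene, Tnfsf9, at an unadjusted p under 0.05 (0.29 ± 0.10, unadjusted p = 0.0205, limma adjusted p = 0.355), beside 10% of all genes, and no other tool was run on this term. For Tnf the interaction was -0.28 ± 0.14 (limma adjusted p = 0.559) and for Fas -0.47 ± 0.26 (95% interval -1.08 to 0.13, limma adjusted p = 0.615). For Tnfrsf1b it was -0.13 ± 0.11 (limma adjusted p = 0.767).

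Of the 8 genes, 3 were read by more than 1 probe set, and the annotation used does not say which part of the transcript each one binds. Cflar had 5. Probe set 1449317_at read 7.24 and 7.14 in control, 7.21 and 7.17 in M, 8.66 and 8.75 in LPS, and 8.36 and 8.49 in LPS+M. It rose by 1.51 ± 0.06 in LPS compared to control (limma adjusted p = 0.00048 over 34945 probe sets), against 0.73 for the main probe set. Both of its LPS+M arrays lay below both LPS arrays, with a difference of -0.27 ± 0.06 (limma adjusted p = 0.0602). The other 3 Cflar probe sets were not called in LPS compared to control: 1425686_at gave 0.51 (limma adjusted p = 0.222), 1425687_at gave 0.32 (limma adjusted p = 0.0943) and 1453482_at gave -0.27 ± 0.13 (limma adjusted p = 0.476). So the size of the Cflar change depends on the probe set.

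The second probe set of Traf1, 1445452_at, read 2.65 to 2.67 on the 4 arrays without LPS, 4.44 and 3.50 in LPS, and 2.66 and 3.17 in LPS+M. Its LPS arrays were the highest, and 1 LPS+M array sat at the level of the arrays without LPS. The differences were 1.31 ± 0.33 in LPS compared to control (limma adjusted p = 0.104) and -1.06 ± 0.33 between LPS+M and LPS (limma adjusted p = 0.149), neither called. The second probe set of Tnfrsf1b, 1448951_at, lay at 3.32 or less on all 8 arrays, under the filter.

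**Figure D3:**
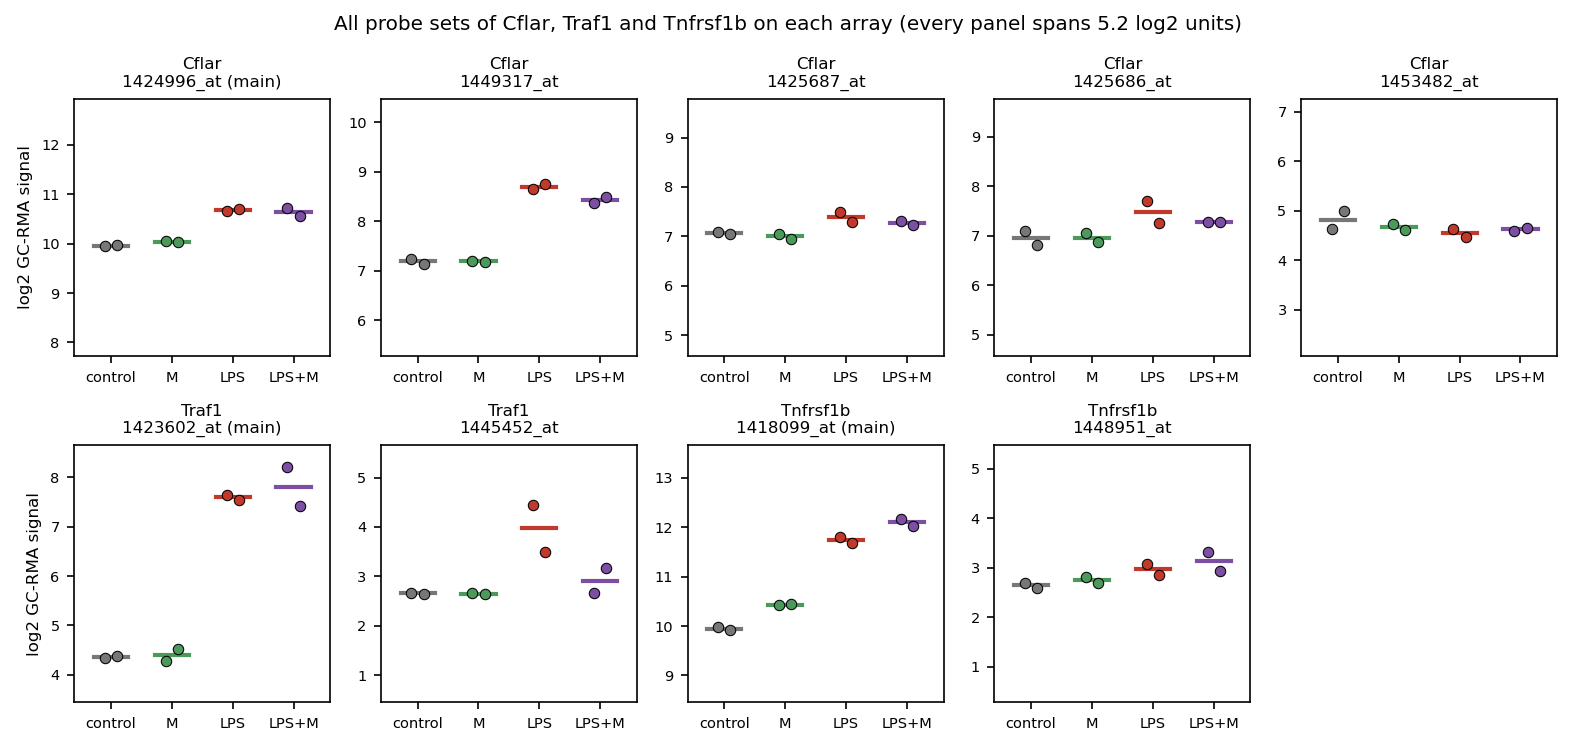
Log2 GC-RMA signal on the 8 arrays of every probe set of Cflar (5), Traf1 (2) and Tnfrsf1b (2); points are arrays, bars are group means and each panel spans 5.2 log2 units. Cflar 1449317_at shows a wider step with LPS than the main Cflar probe set, and Traf1 1445452_at has its highest arrays in LPS, not in LPS+M.

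The rest of the pathway was followed in 5 lists with 102 genes, of which 92 had a probe set and 64 passed the filter. These lists too were chosen with earlier results of these data known. In LPS compared to control 5 of the 64 rose, 2 fell and 57 were not called, beside 3.17% of all genes that rose and 2.96% that fell. The risers were Tnfaip3 (A20, the ubiquitin-editing enzyme that shuts off NF-κB signaling; 4.22 ± 0.27, limma adjusted p = 4.08e-05), Cd40 (a costimulatory receptor of the TNF family; 3.32 ± 0.11, limma adjusted p = 2.21e-06), Zc3h12a (regnase-1, a ribonuclease that degrades inflammatory mRNAs; 2.75 ± 0.19), Tnip1 (an A20-binding protein; 1.75 ± 0.07) and Birc3 (cIAP2; 1.28 ± 0.07). Map3k5 (ASK1, a kinase upstream of JNK and p38) fell by 1.56 ± 0.21, and Traf6 (the adaptor of Toll-like receptor signaling) fell by 0.92 ± 0.19. Both genes lay under the filter of 4.84 on LPS replicate 1, and Zc3h12a lay just under it on control replicate 1, at 4.80. Tnfaip3, at 3.12 and 3.71 in control and 3.35 and 3.40 in M, lay there near the array medians and passed the filter only through its arrays with LPS. Its differences from control and M are therefore measured against signal near background.

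By role, 5 of these 7 calls were in the list of complex I and its regulators. There 3 of 26 tested genes rose and 2 fell, with a median of 0.04 beside -0.03 over all genes. Of 6 tested receptors 1 rose (median -0.05), of 12 genes of TNF processing and mRNA control 1 rose (median 0.22), and of 2 tested ligands, Ltb and Tnfsf13b, 0 were called. Of 18 genes of the death machinery, 0 were called by limma, with a median of -0.10. For so short a list, 0 is near the 3.17% and 2.96% of all genes that rose and fell. Among these 18 genes Casp8 differed by -0.35 (limma adjusted p = 0.00818) and Fadd by -0.38 (limma adjusted p = 0.0145). Apaf1 differed by -0.39 (limma adjusted p = 0.0182) and Casp2 by -0.31 (limma adjusted p = 0.0315). Going the other way were Ninj1 by 0.52 (limma adjusted p = 0.00392) and Bid by 0.26 (limma adjusted p = 0.0203). All of these were under the fold minimum, and no other gene of this list had a limma adjusted p under 0.05.

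Menthol before LPS moved 5 of the 64 genes, with 3 higher and 2 lower than in LPS, beside 4.22% and 2.49% of all genes, so the count is near the background. These 5 were in the complex I list. Tnfaip3 fell by 2.49 ± 0.27 (limma adjusted p = 0.000669), from 7.83 and 7.44 in LPS to 5.52 and 4.77 in LPS+M, and the latter arrays were still above those of M. On LPS+M replicate 2 Tnfaip3 lay under the filter of 4.84, so the size of this fall rests partly on low signal. Ikbkg (NEMO, the regulatory subunit of the IκB kinase) fell by 0.76 ± 0.09 (limma adjusted p = 0.00123). Map3k5 rose by 1.84 ± 0.21 (limma adjusted p = 0.000831), from 4.83 and 5.59 in LPS to 7.14 and 6.96. Traf6 rose by 1.35 ± 0.19 (limma adjusted p = 0.00212), from 4.62 and 5.27 in LPS to 6.44 and 6.15. Spata2, which links the deubiquitinase CYLD to complex I, rose by 0.75 ± 0.09 (limma adjusted p = 0.00106). Map3k5 and Traf6 had both fallen with LPS alone, and in LPS+M compared to M neither was called (-0.46 and 0.20). Both genes lay under the filter of 4.84 on LPS replicate 1, so their differences from LPS are measured against low signal. The median of the list was 0.08 beside 0.03 over all genes. The death machinery again had 0 of 18 called, with a median of -0.01, and the ligands, the receptors and the processing list had 0 called too. For lists this short, 0 is near the shares of all genes.

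**Figure D4:**
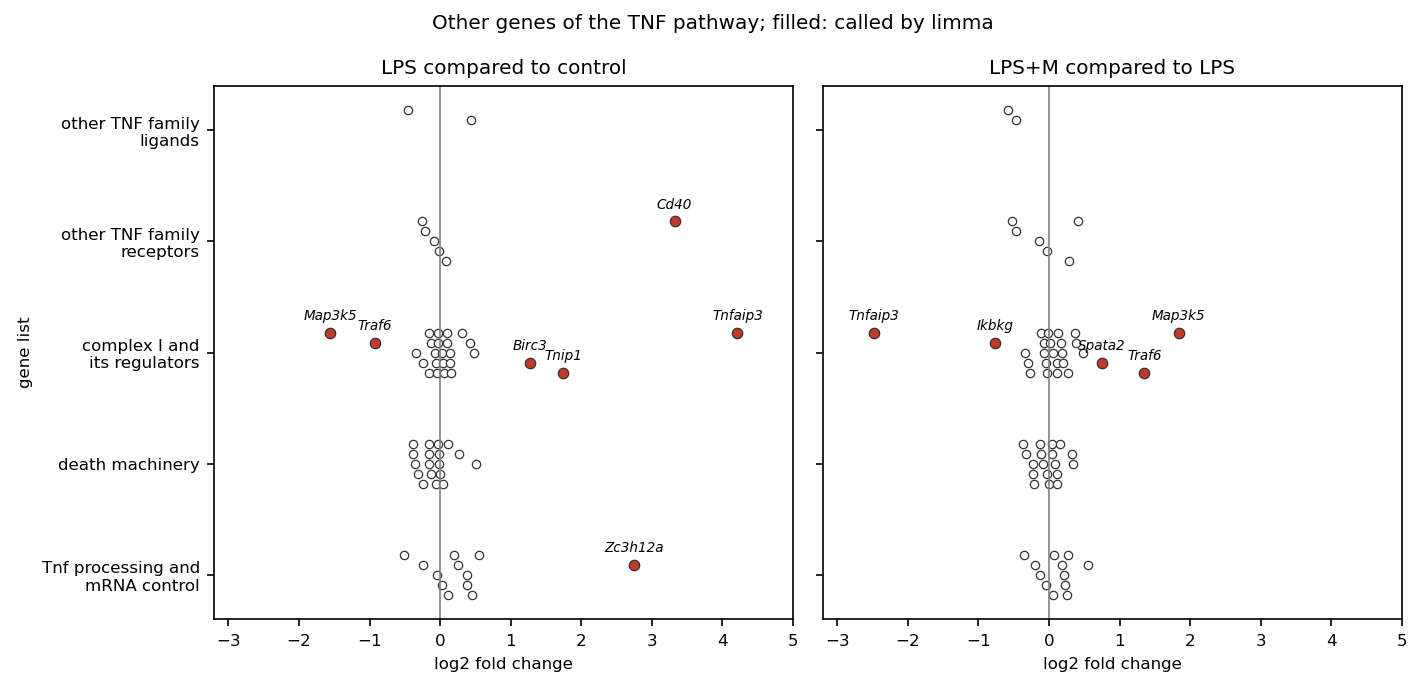
Log2 fold change (horizontal axis) of the 64 tested pathway genes in 5 lists (rows), in LPS compared to control and in LPS+M compared to LPS; each point is a gene, filled and named where called. Tnfaip3 is far to the right with LPS and to the left with menthol before LPS, Map3k5 and Traf6 the reverse, and no gene of the death machinery is filled.

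In M compared to control 2 of the 64 rose and 0 fell, near the 3.01% and 1.54% of all genes: Map3k5 (0.74 ± 0.21, limma adjusted p = 0.0397) and Tnip1 (0.60 ± 0.07, limma adjusted p = 0.0013). In LPS+M compared to M 5 rose and 0 fell (2.39% and 1.77% of all genes), the same 5 that rose in LPS compared to control, with Cd40 at 3.16 ± 0.11 and Tnfaip3 at 1.77 ± 0.27. In LPS compared to M 8 rose and 4 fell, beside 4.59% and 6.7% of all genes. In the complex I list Tnfaip3 was 4.26 higher, Tnip1 1.14 higher, while Map3k5 fell by 2.30 and Traf6 fell by 1.15. Cd40 rose by 3.69 and Zc3h12a by 2.53. The rest include Ltb (lymphotoxin beta; 0.91 higher) and Apaf1, the scaffold of the apoptosome and the only gene of the death machinery called there, which fell by 0.59.

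In LPS+M compared to control 8 rose and 4 fell, beside 5.53% and 4.3% of all genes. Cd40 rose by 2.80, Tnip1 by 2.23, Tnfaip3 by 1.73 and Birc3 by 0.98, while Tnfrsf11a (RANK, the receptor for osteoclast formation) fell by 0.68. A further 3 genes of TNF processing and mRNA control rose, Zc3h12a (4.80 and 5.46 in control, 8.15 and 8.12 in LPS+M), Rhbdf2 (iRhom2, which carries ADAM17 to the cell surface) by 1.10 and Rc3h1 (roquin-1, an mRNA decay factor) by 0.62, and Zfp36l1, another decay factor, fell by 0.85. Fadd, the adaptor between death receptors and caspase-8, fell by 0.61 ± 0.08 (limma adjusted p = 0.00106), and Tnfsf13b, the B cell survival factor BAFF, by 0.92 ± 0.09 (limma adjusted p = 0.000291). Ninj1, which acts in membrane rupture at the end of lytic death, rose by 0.60 ± 0.08 (limma adjusted p = 0.00123). The interaction called 0 of the 64, and the closest was Tnfaip3 at -2.45 ± 0.38 (limma adjusted p = 0.0723). That value rests in part on the control and M arrays, where Tnfaip3 was near background. Adam17 was not called in any comparison, as its differences stayed under the fold minimum. It was 0.45 higher in LPS compared to control (limma adjusted p = 0.00467) and 0.49 higher in LPS+M compared to M (limma adjusted p = 0.00471). Between LPS+M and LPS its difference was -0.04 (limma adjusted p = 0.709). Zfp36 (tristetraprolin, which destabilizes Tnf mRNA) was not called in any comparison either.

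The genes whose levels ran most like those of the set were listed for the 4 genes with group means at least 1 log2 unit apart, by Pearson's r over the 8 arrays, among 512 genes. The 8 arrays share 4 treatments, so r mainly describes the group pattern and carries no p. Nearest to Tnf were Lcn2 (r = 0.997), Cd40 (0.996) and Rtn2 (0.996). Nearest to Fas were Lcn2 (0.996), Rtn2 (0.996) and Tnf itself (0.995). In these genes, as in Tnf, the LPS+M arrays lay below the LPS arrays. For example, Lcn2 read 9.93 and 9.85 in LPS and 9.77 and 9.35 in LPS+M. Nearest to Tnfrsf1b were Tnip1 (0.995), Marcksl1 (0.995) and Tlr2 (0.994), which share its 4 steps. Tlr2 read 11.50 and 11.61 in control, 12.09 and 11.98 in M, 13.27 and 13.28 in LPS, and 13.82 and 13.81 in LPS+M. Nearest to Traf1 were Pik3r5 (0.997), Ppfibp2 (0.995) and Clec4e (0.991), in which the LPS+M and LPS arrays overlapped, as they did in Traf1.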

How the data were processed

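RNA of RAW 264.7 cells was hybridised to 8 Affymetrix mouse genome arrays. The deposited log2 values were made by the authors in R (2.6.1) with the package GCRMA, version 2.10.0, per the submitters' processing notes. This corrects background by probe GC content, quantile normalizes the arrays and summarises each probe set. What it does to differences at low signal was not tested. From these values, 1 fit with 4 group coefficients was made in limma 3.58.1 (R 4.3.3), with 4 residual and 3.78 prior degrees of freedom, tested on simulated data. Of 45101 probe sets, 34945 carry 1 symbol, 932 several, 9160 none and 64 are Affymetrix controls; only the first were used. The probe set of highest mean stood for a gene, and 8908 genes over a mean of 4.84, which is the average probe set's, were tested. In all, 6 pairwise comparisons and the interaction were made. Precision is limited by the number of arrays, and an exact permutation test of 2 against 2 arrays cannot give a two-sided p below 0.333. All 9 genes, up to 4 called genes of a list with the largest change, and the 3 genes most like a member are named. Traf6, Fadd, Ninj1 and Apaf1 (in LPS compared to control), Spata2, Casp8, Casp2, Bid, Adam17 and Zfp36 were named after their values were seen. The members and lists were chosen with earlier results of these data known. The 22 alternatives were other filters, probe set rules, normalizations, tests, samples in the fit and fold minimums, a block for the replicate number, each array left out and, added after seeing the data, each probe set by itself. Coordinates and promoters are RefSeq's (GRCm38.p6); the build used for the arrays' annotation is not given in the sources used here.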

Additional observations from a re-analysis of the deposited data

Results flagged for a closer look

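A probe set of Cflar other than the one used for the gene, 1449317_at, rose by 1.51 on the log2 scale in LPS compared to control, above the level of both control arrays. It was picked out because its signal lies outside the values used in the comparisons of genes. Why it differs from the main probe set was not tested.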

How the results depend on the processing

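The direction of every called difference of the 8 genes held in all alternatives run, and among single genes 1152 of 1201 alternative values kept their side of the threshold. Over the alternatives that leave out 1 array, the number of the 8 genes called was 0 in M compared to control, 5 to 6 for LPS against control, 6 for LPS against M, 1 to 2 in LPS+M compared to LPS, 4 to 5 in LPS+M compared to M, 5 in LPS+M compared to control and 0 for the interaction. The 6 in LPS compared to control came without control replicate 2 (Traf2, 0.71) or without LPS replicate 2 (Tnfsf9, -0.59). The 2 in LPS+M compared to LPS came without LPS+M replicate 2 (Traf1, 0.61), and the 4 in LPS+M compared to M without LPS+M replicate 1 (Cflar, 0.51). When the probe sets of a gene were averaged, 3 were called in LPS, and in LPS+M, compared to control and in LPS+M compared to M, since Traf1 dropped under the filter and Cflar under the fold minimum (0.56 in LPS compared to control). With no fold minimum 2 were called in M compared to control (Tnfsf9, Tnfrsf1b) and 3 in LPS+M compared to LPS (Tnfsf9, Tnfrsf1b and, lower, Tnf), and with a fold minimum of 2 the latter count was 0. The methods' test of 2 groups at an unadjusted p called 4 in LPS compared to control, where Fas did not pass, and 3 in LPS+M compared to M and in LPS+M compared to control, where Traf1 and Cflar did not pass; after Benjamini-Hochberg adjustment it called 0 in each of the 6 pairwise comparisons, over all genes too.

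Over all genes, the count called in M compared to control was 405 and became 253 with probe sets averaged, 254 with the methods' test at an unadjusted p, 1934 with no fold minimum and 85 with a fold minimum of 2. LPS compared to control went from 546 to 349 with the methods' test, 1935 and 184 with the fold settings. In the order first given, LPS compared to M went from 1006 to 663, 640, 3450 and 329, LPS+M compared to LPS from 598 to 371, 288, 2560 and 136, and LPS+M compared to control from 876 to 581, 503, 3085 and 268. LPS+M compared to M went from 371 to 217 with the methods' test, 1268 and 136. The interaction called 21 genes and from 1 to 45 in the alternatives. With no filter, the 92 pathway genes gave 6 higher and 1 lower in LPS compared to control. In the complex I list, the genes called lower in that comparison then went from 2 to 1. Those called higher there in M compared to control also went from 2 to 1. For TNF processing and mRNA control, the genes called higher in LPS+M compared to control went from 3 to 2.

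The labels do not say whether a replicate number marks a shared culture or day, and the main fit assumed no pairing. The correlation of replicate differences between groups ran from -0.12 to 0.19, which cannot decide whether arrays of the same number belong together. With the replicate number as a block, the calls over all genes went from 405 to 408 in M compared to control and from 598 to 603 in LPS+M compared to LPS, and no count of the 8 genes moved. The adjusted p of Tnf in LPS+M compared to LPS was 0.0509 with the block. Signal over background limits Traf1 and Tnfaip3, which lay under the filter on all 4 arrays without LPS. It also limits Tnfaip3 on LPS+M replicate 2, and Map3k5 and Traf6 on LPS replicate 1, which lay under the filter too. On control replicate 1 Fas (4.83) and Zc3h12a (4.80) lay just under it, so their differences from control rest partly on low signal. What the background correction gives at such signal was not varied.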
